A study of Artemia parthenogenetic lineage with 6 samples.

Results

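The regions described are 1457 ATAC-seq peaks that overlap the annotated start of a gene of 10001 to 50000 bp, out of 112790 peaks in the table of all regions. They were chosen by position alone, from a distance of 0 bp between peak and transcription start site (TSS) and from the length of the gene, and no accessibility value entered the choice. They make up 1457 of the 3566 peaks over a TSS. A further 299 start-site peaks belong to genes of up to 10000 bp and 1810 to genes over 50000 bp. Each of the 1457 peaks belongs to a different gene. The genes lie on 768 contigs, 702 of them on the plus strand and 755 on the minus strand, and no contig holds more than 11. All 1457 peaks passed the filter on low counts.

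*Artemia* are brine shrimps whose embryos can arrest at the gastrula stage inside a hard shell, as a cyst. In diapause the cyst stays arrested even in favourable water, with metabolism and transcription held very low, and after diapause is broken rehydration in warm, lit seawater restarts development. ATAC-seq uses the Tn5 transposase, which cuts and tags DNA that is not covered by nucleosomes, so the number of reads in a peak follows how open that stretch of DNA is. At the start of an active gene the nucleosomes are commonly displaced where RNA polymerase and transcription factors assemble, and this makes start sites one of the most regular classes of open chromatin.

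ArD_0h comprised 3 libraries of wild-type *A. parthenogenetica* cysts in diapause, with no treatment (time 0 h). ArR_5h comprised 3 libraries of cysts collected 5 h after embryonic diapause termination (EDT), in which dry cysts from Ebinur Lake, previously dehydrated and refrigerated, were rehydrated in cold artificial seawater and then kept in warm artificial seawater under constant light. One label field lists 28 °C for ArR_5h replicate 1, 29 °C for replicate 2 and 30 °C for replicate 3, but the protocol text of all libraries gives 28 °C, so it is not settled whether the temperatures differed. Reads were mapped to the *A. franciscana* assembly, so the species of the cysts and of the reference differ, and whole cysts were used, so that changes in cell make-up and changes within cells cannot be told apart. Gene IDs carry no descriptions in the table, so the tissue could not be checked against marker genes. The ArR_30min libraries were not analysed here. The 6 libraries held 5239170 to 9366963 counts in peaks.

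One library stood apart at the start-site peaks. The median level of the 1457 peaks was 6.54 CPM (counts scaled to a common library size, set over all peaks by TMM) in ArD_0h replicate 1, 14.7 in replicate 2 and 15.4 in replicate 3. It was 21.7 in ArR_5h replicate 1, 20.0 in replicate 2 and 17.8 in replicate 3. Thus every ArR_5h library lay above every ArD_0h library, but the gap between ArD_0h replicate 1 and the rest of its group was larger than the gap between the groups. Over all tested peaks the medians were nearly level, from 5.29 to 5.56 CPM. ArD_0h replicate 1 was the lowest of its group at 1332 of the 1457 peaks (91.4%), against 39.3% of all tested peaks, and the highest at 63 (4.32%). The log2 ratio of this replicate to the mean of replicates 2 and 3 had a median of -1.25 at the start-site peaks and -0.01 over all tested peaks. Spearman correlations across the 1457 peaks were 0.945 between ArD_0h replicates 2 and 3, 0.773 and 0.763 between replicate 1 and each of these, and 0.950 to 0.962 within ArR_5h. These describe the libraries and share the same peaks. The main counts below are therefore also given without ArD_0h replicate 1.

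**Figure D1:**
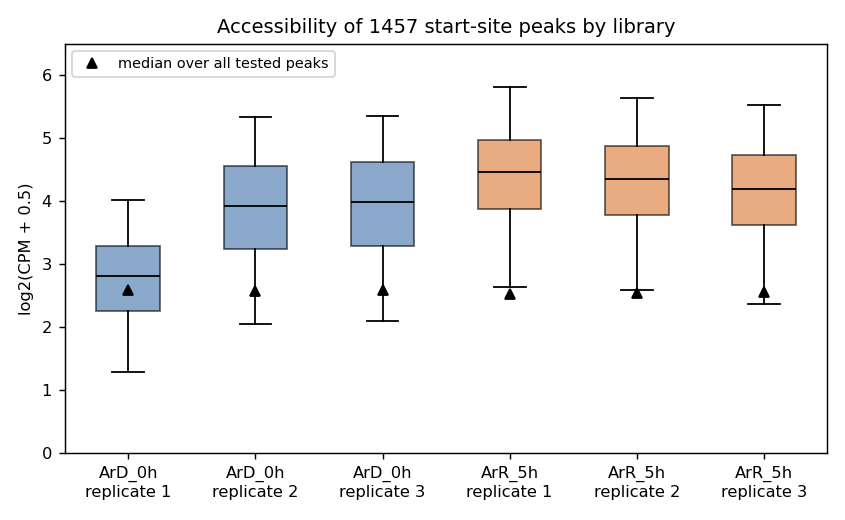
Levels of the 1457 start-site peaks of mid-length genes in the 6 libraries, as log2(CPM + 0.5). Boxes span the quartiles with the median as a line, whiskers the 5th to 95th percentile, and triangles mark the median over all tested peaks, which is nearly level while the start-site medians run from 6.54 CPM in ArD_0h replicate 1 to 21.7 CPM in ArR_5h replicate 1.

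Of all counts in peaks, the diapause libraries had 1.21%, 2.57% and 2.66% in the start-site peaks (replicates 1 to 3), and the 5 h libraries had 3.41%, 3.24% and 2.93%. This gave 2.15% ± 0.816 (SD, n = 3) for ArD_0h against 3.19% ± 0.241 (SD, n = 3) for ArR_5h. The difference was 1.04 percentage points (2-sided exact permutation test, p = 0.1, which no 3-against-3 design can go below), and 0.573 without ArD_0h replicate 1 (2-sided exact permutation test, p = 0.2, the lowest value possible with that library out). The groups did not overlap in either case, and the design could not reach 0.05.

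Start-site accessibility of mid-length genes was more often higher than lower 5 h after EDT. The quasi-likelihood test of edgeR was run over all 112211 tested peaks. A call needed a Benjamini-Hochberg adjusted p no larger than 0.05 and a log2 difference (ArR_5h minus ArD_0h) of more than 1 in size. By this rule 372 of the 1457 peaks (25.5%) were higher in ArR_5h, against 14.5% of all tested peaks, and 9 (0.618%) were lower, against 15.2%. The median log2 difference was 0.70, with quartiles of 0.40 and 1.01, and the median over all tested peaks was -0.07. The difference was above 0 at 1358 peaks (93.2%) and at 47.9% of all tested peaks. Every ArR_5h library exceeded every ArD_0h library at 798 start-site peaks (54.8%, against 26.4% of all tested peaks), and the reverse held at 23 (1.58%, against 25.7%).

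With the limit on size kept, much of the excess of higher calls went with ArD_0h replicate 1. Without that library 181 start-site peaks (12.4%) were higher, against 10.8% of all tested peaks, and the median log2 difference was 0.39. Of these 181 peaks 177 were also among the 372. The log2 differences also varied with the level of a peak over the whole table, and the start-site peaks are strong, with a median of 16.2 CPM against 5.48. Once a smooth trend on level was removed from each library, 200 start-site peaks (13.7%) were higher, against 13.5% of all tested peaks, with a median of 0.42. With both steps together, 102 start-site peaks (7.0%) were higher, against 9.76% of all tested peaks, with a median of 0.15 against 0.02. With the limit on size, the share of higher calls among start-site peaks thus went from above that of all peaks to below it as the steps were added; without that limit it stayed above (23.4% against 17.4% with both steps). When the library totals behind the deposited RPM values served for scaling, 510 (35.0%) were higher, against 18.9%, and the median over all tested peaks moved from -0.07 to 0.09.

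The rarity of lower calls did not go with that library when the limit on size was kept. The number of start-site peaks called lower was 9 (0.618%, against 12.6% of all tested peaks) without ArD_0h replicate 1, 8 (0.549%, against 14.2%) with the trend removed, and 9 (0.618%, against 10.6%) with both steps. By library totals it was 1, against 10.6% of all tested peaks. The 9 peaks called lower with both steps shared 3 with the 9 called from all 6 libraries. Among the 372 higher peaks, 153 were called whichever single library was left out, and 98 were called with both steps. The matching counts of kept calls over all tested peaks were not made, so these 2 counts are a description.

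**Figure D2:**
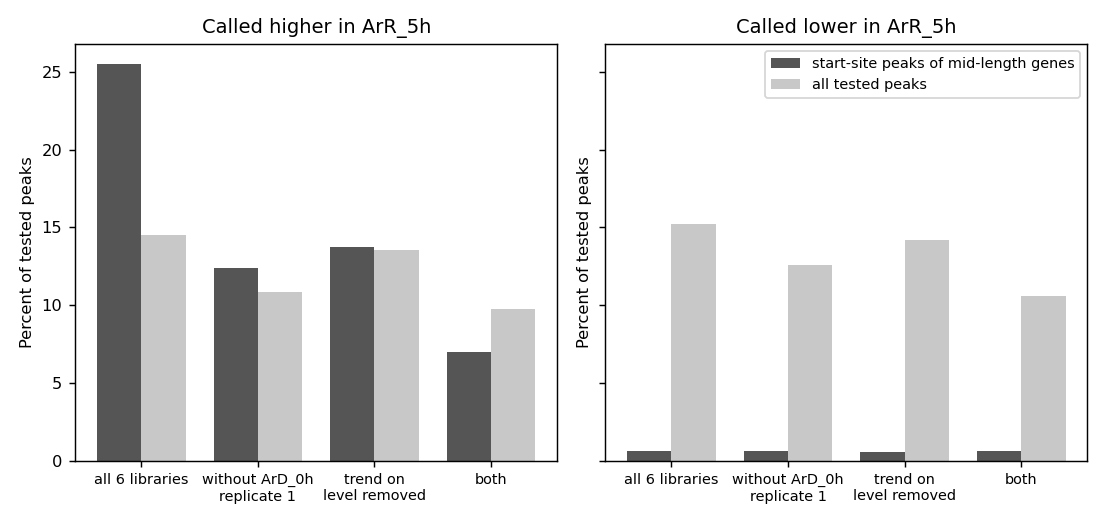
Percent of peaks called higher (left) and lower (right) in ArR_5h, for the start-site peaks of mid-length genes (dark bars) and all tested peaks (light bars), from all 6 libraries, without ArD_0h replicate 1, with the trend on level removed, and with both. The dark bar for higher calls drops from 25.5% to 7.0%, while the dark bars for lower calls stay between 0.549% and 0.618%.

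The limit on size mattered for both directions. With an adjusted p of at most 0.05 and no limit on size, 590 start-site peaks (40.5%) were higher, against 20.0% of all tested peaks, and 14 (0.961%) were lower, against 19.7%. Without ArD_0h replicate 1 the same rule gave 601 higher (41.2%, against 20.1%) and 57 lower (3.91%, against 18.2%). With the trend on level removed as well, it gave 341 higher (23.4%, against 17.4%) and 168 lower (11.5%, against 17.1%). Differences past this rule therefore ran more often upwards than downwards at the start-site peaks in each of these settings, and the share of lower peaks came closest to that of all peaks with both steps. The settings without ArD_0h replicate 1 and without a limit on size were added after the data were seen.

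Weaker and narrower start-site peaks had larger differences. The peaks were split by mean level into 4 groups of nearly equal number. In the weakest group (2.33 to 10.8 CPM) the median levels were 3.20, 5.96 and 6.08 CPM in ArD_0h and 9.45, 8.85 and 8.06 CPM in ArR_5h. In the strongest group (23.8 to 99.8 CPM) they were 10.9, 30.7 and 31.9 CPM in ArD_0h and 40.2, 37.8 and 34.1 CPM in ArR_5h. Both had all ArR_5h libraries above all ArD_0h libraries in the median, but ArD_0h replicate 1 lay much farther below its replicates in the strongest one. From the weakest to the strongest group, 34.2%, 27.7%, 17.9% and 22.3% of the peaks were higher. With both steps the shares were 17.8%, 4.67%, 3.30% and 2.20%, and the median log2 differences were 0.46, 0.18, 0.03 and 0.05. Over all tested peaks 14.5% were higher, and 9.76% with both steps. Of the 9 lower peaks, 7 lay in the weakest group, 2 in the next and none in the stronger ones.

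Other peaks of the table at the same levels behaved differently. These were all tested peaks outside the class described here, and so included start-site peaks of shorter and longer genes. The 86608 other peaks within the limits of the weakest group had a median log2 difference of -0.18, against 0.79 at the start-site peaks, and with both steps 0.02 against 0.46. The 5338 other peaks within the limits of the strongest group had a median of 0.31, against 0.64, and 23.4% of them were higher, against 22.3% of the start-site peaks. With both steps their medians were -0.06 and 0.05. However, 8.99% of those other strong peaks were lower, against none of the 364 start-site peaks. With both steps 12.6% of them were lower, against 2 of the 364. In the weakest group 7 of 365 start-site peaks were lower, against 16.7% of the other peaks, and 5 against 10.2% with both steps. So lower calls were rarer at the start-site peaks than at other peaks in the weakest and in the strongest group. The share of higher calls stood above that of other peaks in the weakest group (34.2% against 12.1%) and close to it in the strongest. In the groups between it was 27.7% against 24.4% and 17.9% against 26.0%. With both steps it was above only in the weakest group (17.8% against 10.5%). In the stronger groups it was then 4.67% against 7.10%, 3.30% against 5.76% and 2.20% against 4.65%. This is a description over peaks, which are not replicates, and levels were not matched further within the limits.

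**Figure D3:**
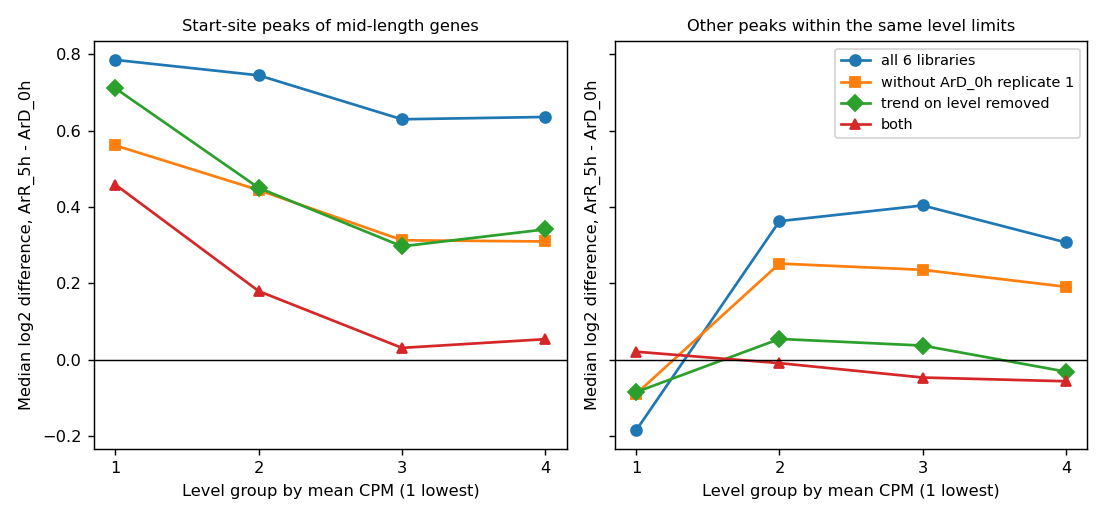
Median log2 difference (ArR_5h minus ArD_0h) by level group (4 groups by mean CPM), for the start-site peaks of mid-length genes (left) and for all other tested peaks within the same level limits (right), under 4 settings. With both steps the start-site medians go from 0.46 in the weakest group to 0.05 in the strongest, and those of the other peaks from 0.02 to -0.06.

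Peak width gave a similar picture, and level and width went together. The median width was 772 bp (lowest 200, highest 2332), against 329 bp over all tested peaks. Split the same way by width, from narrowest to widest, 36.2%, 32.0%, 20.0% and 13.8% were higher, and the median level rose from 3.34 to 10.4 CPM in ArD_0h replicate 1 and from 9.79 to 34.1 CPM in ArR_5h replicate 1. With both steps the shares were 18.0%, 5.80%, 3.01% and 1.10%, and the median log2 difference in the widest group was -0.01. Over all tested peaks 14.5% were higher, and 9.76% with both steps. With both steps only the narrowest group stood above that share. By gene length within the class the medians were closer to each other and lowest for the longest genes. From the group with the shortest genes to that with the longest the medians were 0.71, 0.73, 0.70 and 0.67, and 29.3%, 23.9%, 25.3% and 23.6% of the peaks were higher. With both steps the medians were 0.20, 0.15, 0.16 and 0.09 and the shares 9.86%, 6.32%, 5.49% and 6.32%. The shares by gene length stand beside the same 14.5% and 9.76% of all tested peaks.

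The peaks lay almost evenly around the TSS. A peak reached a median of 379 bp upstream of the start and 346 bp into the gene. Most listed several summits, the positions of highest signal, and the median of these positions was used. It lay upstream of the TSS at 1012 peaks (69.5%), with a median position of 43.5 bp upstream. Peaks whose summit lay over 50 and up to 150 bp upstream were higher in 160 of 512 cases (31.2%), and those with a summit within 50 bp of the start in 134 of 490 (27.3%). For summits over 50 and up to 150 bp inside the gene the count was 39 of 166 (23.5%). Summits farther out went with fewer higher calls, 26 of 173 (15.0%) beyond 150 bp upstream and 13 of 116 (11.2%) beyond 150 bp inside the gene. Over all tested peaks the share was 14.5%. Those outer groups also held wider peaks, with medians of 900.0 and 902.5 bp. Without ArD_0h replicate 1 the order of the outer groups below the inner ones held, with 5.78% and 4.31% in the outer groups and 11.8% to 16.3% in the others. Over all tested peaks the share was then 10.8%. A gene on the opposite strand started within 1000 bp upstream at 38 of the genes. Of the start-site peaks of these genes 5 (13.2%) were higher, against 367 of the other 1419 (25.9%) and 14.5% of all tested peaks. The median log2 differences were 0.63 and 0.70, and 0.28 and 0.39 without ArD_0h replicate 1. The median widths were 978.5 and 768 bp. Only genes linked to a peak were searched for such starts.

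Start-site peaks of genes of other lengths were the closest classes for comparison. Of those of genes up to 10000 bp, 65 (21.7%) were higher and 17 (5.69%) lower, with a median log2 difference of 0.46. Of those of genes over 50000 bp, 543 (30.0%) were higher and 9 (0.498%) lower, with a median of 0.74. Over all tested peaks 14.5% were higher and 15.2% lower. Without ArD_0h replicate 1 the short class had 38 higher (12.7%) and 17 lower (5.69%), and the long class 268 higher (14.8%) and 8 lower (0.442%). In that setting 12.4% of the mid-length class and 10.8% of all tested peaks were higher. With both steps the shares higher were 7.02% (short), 7.00% (mid-length) and 7.90% (long), against 9.76% of all tested peaks. The shares lower were then 5.69%, 0.618% and 0.884%, against 10.6%. The mean log2 CPM of the mid-length class minus that of the short class was -0.34, 0.21 and 0.24 in the ArD_0h libraries, in the order of their numbers, and 0.46, 0.38 and 0.32 in the ArR_5h libraries. The difference between groups was 0.35 (2-sided exact permutation test over libraries, p = 0.1, the lowest value possible), and 0.17 without ArD_0h replicate 1 (2-sided exact permutation test, p = 0.2, the lowest value possible). All ArR_5h libraries lay above all ArD_0h libraries in both. With both steps the difference from the short class was 0.105. Against the long class the values were 0.04, 0.05 and 0.06 in ArD_0h and 0.02, 0.01 and 0.01 in ArR_5h. That difference was -0.04 (2-sided exact permutation test, p = 0.1, the lowest value possible), with each ArR_5h library below each ArD_0h library. At the limits of the rule, the peak of evm.TU.ctg3.10, the shortest gene inside (10063 bp), had a log2 difference of 1.14, which fell under the limit on size without ArD_0h replicate 1 (0.89) and with both steps (0.65). That of evm.TU.ctg138.17, just outside (9981 bp), had 2.15, and 1.65 without ArD_0h replicate 1, which was at 2.64 CPM against 20.8 and 20.0 CPM in replicates 2 and 3. The peak of evm.TU.ctg70.10, the longest gene inside (49977 bp), had -0.90 and was not called, but without ArD_0h replicate 1 it was called lower (-1.38, edgeR adjusted p = 0.000145), as with both steps (-1.42). That of evm.TU.ctg76.2, just outside (50001 bp), had 0.13 and was not called in either setting.

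Among peaks of at least median level, the 10 with the largest calls rose by 1.70 to 2.15 on the log2 scale (edgeR adjusted p 9.16e-05 to 0.000549). They were chosen for the size of their differences, so their values are a description. Without ArD_0h replicate 1 their differences were 1.36 to 1.94, and with both steps 1.16 to 1.66. The largest was at evm.TU.ctg157.9, a plus-strand gene of 26882 bp whose peak spans ctg157:694179-695112. Its level, with the replicates given in order here and in what follows, was 5.15, 9.33 and 7.03 CPM in ArD_0h and 34.3, 30.5 and 30.7 CPM in ArR_5h. The log2 difference was 2.15 (SE 0.31, edgeR adjusted p = 9.16e-05), and 1.94 without ArD_0h replicate 1, which was the lowest of its group here too.

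The peak of evm.TU.ctg162.16 (ctg162:994856-995439) had 6.82, 11.0 and 11.0 CPM in ArD_0h and 44.2, 37.9 and 40.3 CPM in ArR_5h, a log2 difference of 2.09 (SE 0.30, edgeR adjusted p = 0.000101). That of evm.TU.ctg639.23 (ctg639:861757-862293), whose gene is annotated as an integral component of membrane, had 5.56, 7.34 and 9.31 against 30.5, 26.8 and 28.9 CPM. Both had narrow spreads in ArR_5h and low levels in all 3 ArD_0h libraries. The peak of evm.TU.ctg395.25 (ctg395:1510943-1511420) belongs to a gene annotated as a sequence-specific DNA-binding transcription factor, a protein that binds DNA and sets how strongly other genes are read. It had 5.15, 11.5 and 12.2 CPM in ArD_0h and 33.3, 32.2 and 31.3 CPM in ArR_5h, and its log2 difference was 1.76 (SE 0.32, edgeR adjusted p = 0.000461) and 1.45 without ArD_0h replicate 1. The strongest of the 10 was that of evm.TU.ctg495.3 (ctg495:314617-315579), with 12.1, 37.3 and 31.9 CPM against 91.0, 97.0 and 80.0 CPM. Here ArD_0h replicate 1 lay far below its group, and the difference went from 1.72 to 1.36 without it. The other 5 were those of evm.TU.ctg37.48, evm.TU.ctg637.26, evm.TU.ctg3117.1, evm.TU.ctg756.6 and evm.TU.ctg452.10, for which the sources used here give no function.

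The 9 lower peaks were mostly weak and narrow. Their median level was 6.64 CPM and their median width 359 bp, and 5 of their genes were shorter than 20000 bp. ArD_0h replicate 1 was the highest of its group at 5 of them and the lowest at 3. The largest fall was at evm.TU.ctg31.3 (ctg31:188325-188849), with 11.5, 9.17 and 7.98 CPM in ArD_0h and 2.70, 3.54 and 4.87 CPM in ArR_5h. Its log2 difference was -1.40 (SE 0.31, edgeR adjusted p = 0.00167), and -1.26 both without ArD_0h replicate 1 and with both steps. The peak of evm.TU.ctg510.8 (ctg510:167315-167671) had 11.3, 9.94 and 9.31 against 4.84, 5.08 and 3.56 CPM, a difference of -1.16 (SE 0.29, edgeR adjusted p = 0.0035). These 2 peaks were the lower calls that held whichever library was left out.

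The strongest of the lower peaks was that of evm.TU.ctg1118.11 (ctg1118:769283-770187), with 19.3, 23.7 and 20.0 CPM in ArD_0h and 9.68, 9.92 and 10.1 CPM in ArR_5h. The ArR_5h values differed by little, and the log2 difference was -1.08 (SE 0.28, edgeR adjusted p = 0.00445) and -1.42 with both steps. Of the other 6, those of evm.TU.ctg2328.1, evm.TU.ctg742.12 and evm.TU.ctg572.2 rested on few reads, 6 to 44 counts per library, and lost the call with both steps. The peaks of evm.TU.ctg1410.2, evm.TU.ctg453.13 and evm.TU.ctg1406.9 had log2 differences of -1.04, -1.03 and -1.03, and all 3 lost the call without ArD_0h replicate 1, which was their highest library. The sources used here give no function for the 9 genes.

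**Figure D4:**
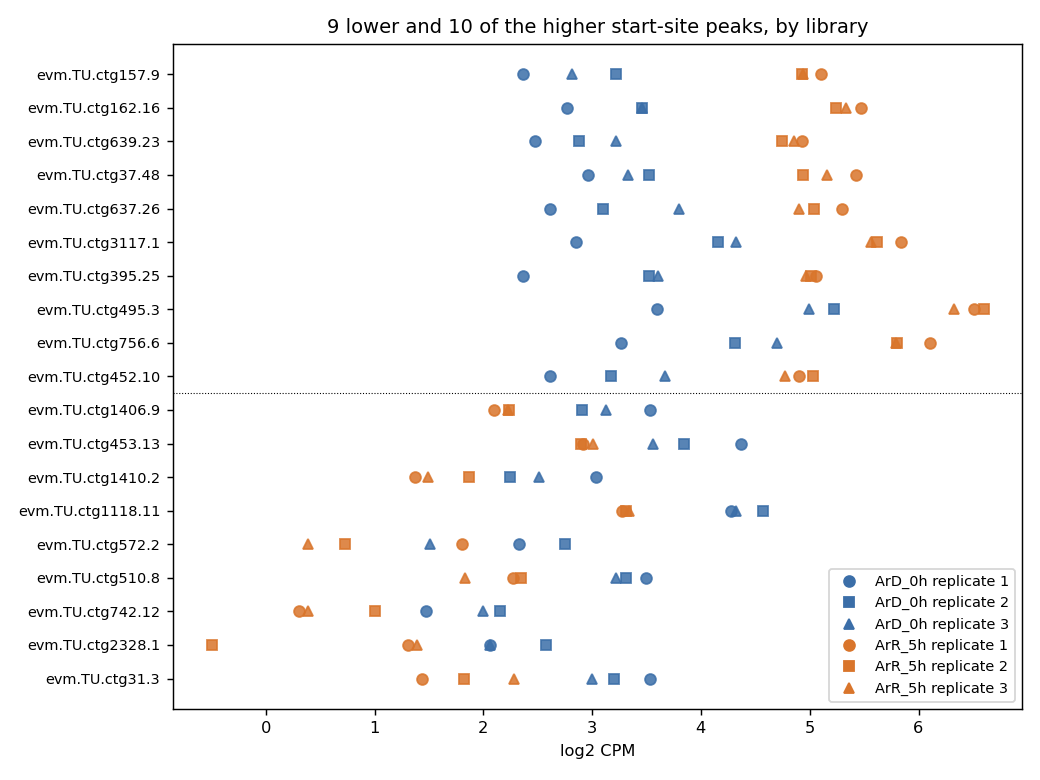
Levels (log2 CPM) in each library of the 9 start-site peaks called lower (below the dotted line) and the 10 higher peaks with the largest differences among those of at least median level (above it). Blue marks are ArD_0h and orange marks ArR_5h, with circles, squares and triangles for replicates 1, 2 and 3. The 10 higher peaks were chosen for the size of their differences, and ArD_0h replicate 1 is the leftmost blue mark at each of them.

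The strongest start-site peaks were mixed. That of evm.TU.ctg722.1 had 20.2, 77.7 and 84.4 CPM in ArD_0h and 139, 121 and 109 CPM in ArR_5h, and was called with a log2 difference of 1.02 (SE 0.34, edgeR adjusted p = 0.0206). Without ArD_0h replicate 1 the difference was 0.60. That of evm.TU.ctg1186.6.3 had 37.8, 58.0 and 60.6 against 104, 111 and 104 CPM, with a difference of 1.02 and 0.83. In both, ArD_0h replicate 1 was the lowest library, and neither passed the limit on size without it. The other 3 of the 5 strongest, those of evm.TU.ctg3.40, evm.TU.ctg2069.4 and evm.TU.ctg906.12, were not called, with log2 differences of 0.62, -0.09 and 0.34. At evm.TU.ctg2069.4 the ArD_0h values were 50.8, 122 and 127 CPM and the ArR_5h values 102, 92.3 and 87.7 CPM. ArD_0h replicate 1 lay below all ArR_5h libraries and the rest of its group above them, and without it the difference was -0.41.

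Gene functions were known for few of the genes. Gene Ontology terms came from the first 567 genes of the study's supplementary list for the interval from diapause to 30 min, and 74 of them have one of the 1457 start-site peaks. The study chose those genes in part from the ArD_0h data used here, and their direction is therefore no independent support. Of the 74 peaks 43 were higher and none lower (24 higher without ArD_0h replicate 1 and 9 with both steps). That is to be read beside the 372, 181 and 102 of all 1457 peaks (25.5%, 12.4% and 7.0%) and beside 14.5%, 10.8% and 9.76% of all tested peaks. Their median log2 difference was 1.16. Terms were given for 54 of them, of which 28 were higher.

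Signal transduction genes pass signals from the cell surface inwards. The 7 peaks at such genes had log2 differences from 0.41 to 1.36. Of them 3 were higher, and none was called without ArD_0h replicate 1. One was that of evm.TU.ctg470.6 (ctg470:600459-601077), annotated with small GTPase mediated signal transduction, the action of molecular switches that bind and split GTP. It had 3.62, 7.19 and 11.2 CPM in ArD_0h and 17.2, 15.2 and 21.4 CPM in ArR_5h, a log2 difference of 1.30 (SE 0.33, edgeR adjusted p = 0.00419) and 0.96 without ArD_0h replicate 1. The peak of evm.TU.ctg13.36, annotated with regulation of signaling and development, had 7.65, 23.1 and 21.9 against 52.0, 44.4 and 37.9 CPM. Its difference was 1.36, and 0.99 without that replicate, just under the limit on size. The peak of evm.TU.ctg321.8, which carries the name Frizzled-10 (Frizzled proteins are cell surface receptors of Wnt ligands), had 4.17, 8.72 and 4.18 against 11.3, 9.21 and 10.3 CPM. Its groups did not overlap, but at 0.84 (SE 0.31, edgeR adjusted p = 0.0331) it stayed under the limit on size. The value turned on single libraries, with 0.63 (edgeR adjusted p = 0.057) without ArD_0h replicate 1 and a call at 1.35 (edgeR adjusted p = 0.00814) without ArD_0h replicate 2. The peak of evm.TU.ctg658.6 had 0.556, 2.14 and 3.80 against 3.94, 5.31 and 3.94 CPM and was not called (1.07, SE 0.49, edgeR adjusted p = 0.082), but it was called at 1.74 without ArD_0h replicate 3 and stood at 0.59 without replicate 1.

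Of the 9 peaks at genes of DNA binding and transcription 4 were higher, and 2 without ArD_0h replicate 1. Besides evm.TU.ctg395.25 they included evm.TU.ctg1076.5 (ctg1076:231476-232113), annotated with DNA-templated transcription. It had 5.98, 26.0 and 18.2 CPM in ArD_0h and 52.4, 42.6 and 43.9 CPM in ArR_5h, with a difference of 1.47, and 1.05 without ArD_0h replicate 1. The gene evm.TU.ctg34.26 (ctg34:2725140-2725829) is annotated with mRNA splicing, the removal of introns from transcripts. Its peak had 6.26, 9.17 and 8.17 against 24.2, 24.1 and 16.7 CPM, with a difference of 1.47 (SE 0.29, edgeR adjusted p = 0.00084), 1.32 without ArD_0h replicate 1 and 1.04 with both steps. It was the 1 peak in the list of RNA binding and translation. Here the ArD_0h libraries were close together, in contrast to evm.TU.ctg1076.5.

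Of the 6 peaks at oxidoreductases, enzymes that move electrons between molecules, 3 were higher, as were 3 without ArD_0h replicate 1 and none with both steps. That of evm.TU.ctg284.40, which acts on aldehyde or oxo groups, had 7.79, 17.3 and 17.9 against 45.2, 39.8 and 39.4 CPM (log2 difference 1.54), and that of the metal-binding enzyme evm.TU.ctg118.5 had 8.21, 26.8 and 27.7 against 64.5, 55.5 and 49.7 CPM (1.44). Both peaks at cytoskeleton genes were higher. That of evm.TU.ctg1175.5, annotated with cortical actin organization, the mesh of filaments under the cell membrane, had 5.29, 10.9 and 12.9 against 31.5, 26.6 and 20.2 CPM (1.44). That of evm.TU.ctg29.4 had 12.0, 32.4 and 32.1 against 66.1, 50.1 and 61.7 CPM (1.22, and 0.87 without ArD_0h replicate 1, under the limit). In the shorter lists, 1 of 2 peaks at transporters was higher (evm.TU.ctg239.24, 1.40), as were the 1 at a peptidase (evm.TU.ctg140.10, 1.34) and 1 of 3 at GTP-binding genes (evm.TU.ctg470.6 again). Neither of 2 at protein kinases was called, with log2 differences of 0.76 and 0.81. With both steps no peak at a transporter, peptidase, cytoskeleton or GTP-binding gene was called, and those of evm.TU.ctg239.24 and evm.TU.ctg140.10 had differences of 0.88 and 0.84. The lists are small, some genes stand in more than one, and their counts stand beside the same shares over all peaks as the 74.

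Other peaks of the same genes were compared, since the rule did not use them. The table links 10283 further tested peaks to 1406 of the 1457 genes, 2738 inside the gene, 4204 upstream and 3341 beyond its end. At genes whose start-site peak was higher, 239 of 801 peaks inside the gene (29.8%) were higher too. At genes whose start-site peak was not called, it was 198 of 1915 (10.3%). Over all tested peaks 14.5% were higher. Counted by gene, 129 of 299 genes (43.1%) had a higher peak inside, against 133 of 811 (16.4%). This held at every distance from the start, with 31.6% against 2.11% up to 1000 bp, 30.8% against 8.80% from there to 10000 bp and 29.1% against 11.9% farther in. Upstream the shares over all distances were closer, 14.6% against 11.8%, and beyond the gene end they were 20.7% against 13.9%. Near the start the upstream shares differed too, with 19.0% (8 of 42) against 5.04% up to 1000 bp and 17.7% against 7.06% to 10000 bp. Farther upstream they were 13.8% against 13.1%. Lower calls upstream made up 17.3% at genes with a higher start-site peak and 18.3% at those not called. Inside the 7 genes with a lower start-site peak and further peaks, 4 of 22 peaks (18.2%) were lower, against 15.2% of all tested peaks. None was higher. Inside genes whose start-site peak was lower without ArD_0h replicate 1, 5 of 26 peaks were lower and 1 higher. With both steps 6 of 25 were lower and 2 higher. Over all tested peaks 12.6% and 10.6% were lower in these settings.

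The difference inside genes was smaller but present without ArD_0h replicate 1, with 79 of 370 peaks (21.4%) against 244 of 2343 (10.4%). With both steps it was 39 of 212 (18.4%) against 232 of 2502 (9.27%). Over all tested peaks 10.8% and 9.76% were higher in these settings. Start-site and inside peaks share the 6 libraries, so these shares describe how calls fall together in the same samples, and no test was made of them.

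**Figure D5:**
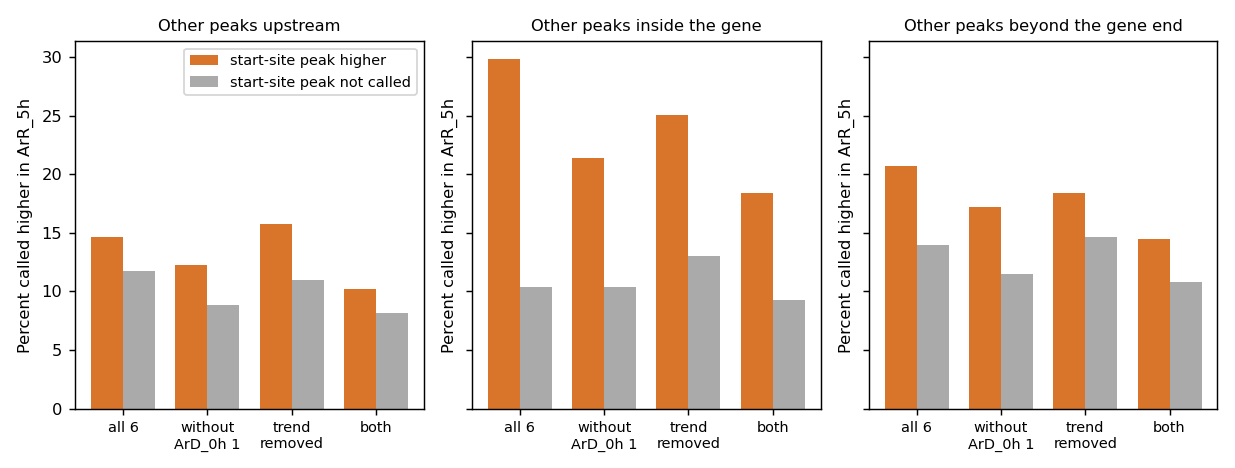
Percent of other tested peaks of the same genes called higher in ArR_5h, upstream of the gene, inside it and beyond its end, for genes whose start-site peak was higher (orange) or not called (grey), under 4 settings. The bars differ most inside genes, 29.8% against 10.3% from all 6 libraries and 18.4% against 9.27% with both steps. Over all tested peaks, not drawn here, the shares were 14.5% and 9.76%.

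Peaks of the same contig varied among themselves almost as much as peaks of different contigs. On the 340 contigs with more than 1 of the start-site peaks, which hold 1029 of them, the SD of the log2 differences was 0.47 within contigs and 0.48 over all these peaks. On the 20 contigs with at least 6, the contig medians ran from 0.25 on ctg174 to 1.16 on ctg29. The 11 peaks of ctg69 alone ran from -0.41 to 2.08.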

How the data were processed

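Per the labels and the study's methods, the authors mapped 150 bp paired ATAC-seq reads with BWA to the *A. franciscana* assembly and called peaks with MACS2. A shift for Tn5 and the counting tool are not given in the sources used here. The authors deposited a whole-number count for each merged peak and library, and an RPM value, used here only for the library totals behind it. Coordinates are those of their table. Testing used edgeR 4.0.16 in R 4.3.3 (filterByExpr, TMM, quasi-likelihood, no block; SE is the log2 difference over the square root of F), and DESeq2 1.42.0 was an alternative. The trend on level was a loess curve (limma 3.58.1, span 0.3) of the natural log of each library's counts on average log2 CPM. A small constant was added to the counts, and the centred curve entered the fit as an offset. Log2 CPM values elsewhere used a prior count of 2. Tables were made in Python 3.11.15 with pandas 2.3.3. The fit was tested on simulated data.

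The members and lists were chosen with earlier results of these data known. Named were the 10 higher calls with the largest log2 differences among peaks of at least median level, and the lower calls. The 5 highest levels, genes in the study's text, 2 calls per list and those at the length limits were named too. Replicates are separate samples of one batch of cysts.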

Additional observations from a re-analysis of the deposited data

How the results depend on the processing

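The 372 higher calls came to 200 with the trend on level removed, 102 with the trend removed and without ArD_0h replicate 1, 590 with no limit on size, and 181 (without ArD_0h replicate 1) to 570 (without ArD_0h replicate 3) when 1 library was left out. Without ArD_0h replicate 2 or ArR_5h replicate 1 they were 512 and 233. The 9 lower calls came to 4 with DESeq2 size factors, 1 by library totals, 14 with no limit on size and 5 to 9 with 1 library left out, the 5 being without ArD_0h replicate 2 or ArR_5h replicate 1. With no limit on size and without ArD_0h replicate 1, a setting added after the data were seen, they were 601 and 57, and 168 lower with the trend removed as well. The median log2 difference was 0.15 with both steps, and 15 of 32 named calls were left. Causes beyond these steps were not tested. DESeq2 called 388 and 6. Deviations of same-numbered libraries from their group means had correlations of -0.21, 0.0039 and -0.15, and those of other pairs ran from -0.11 to 0.19. Deviations within a group of 3 are tied to each other, so these values cannot settle whether replicate numbers pair the libraries. With a replicate block 437 peaks were higher and 7 lower, with a median of 0.78. Differences between length classes and in the share of counts kept their sign in all alternatives run, none of which could reach 0.05. At few counts per weak peak, small changes there were not detectable at this depth.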
